A study of Mus musculus with 74 samples.

Results

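The inguinal white adipose tissue (WAT) peak set held 25050 regions of open chromatin, and 9463 of them carried an annotation to the promoter and transcription start site of a gene. These 9463 promoter regions are described here, chosen by that deposited annotation alone. The chromatin came from sorted nuclei of mice labelled Adiponectin-Cre:NuTRAP, in which the Adiponectin promoter drives Cre in adipocytes and Cre switches on fluorescent tags of nuclei and ribosomes. ATAC-seq, which counts where a transposase can cut the chromatin, was made at Zeitgeber times ZT1, ZT5, ZT9, ZT13, ZT17 and ZT21 (hours after lights on), with 3 libraries at each time. Ribosome-bound RNA pulled down through the same tag was sequenced from WAT of the same line and times, again with 3 libraries each. Binding of BMAL1, a core factor of the circadian clock, came from 2 ChIP-seq libraries of inguinal WAT of C57BL6J mice at ZT4. All ATAC and RNA groups shared the Cre line and the tag, and the groups differed in time only. The labels gave no sex, age, diet or feeding schedule, and did not say that replicates came from separate animals, so p-values measure the spread between libraries, which may be technical. ZT13, ZT17 and ZT21 are called the dark phase by the convention of lights off at ZT12.

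A promoter is the stretch of DNA at the start of a gene where the transcription machinery assembles, and in most active genes it is kept free of nucleosomes and open to the transposase. Distant enhancers are usually opened by cell-type factors and by signals, and promoters of broadly active genes tend to stay open. The circadian clock is a feedback loop in which BMAL1 and CLOCK activate genes through E-boxes, among them the repressors of the PER, CRY and REV-ERB families and the factors DBP and TEF. In fat cells the daily cycle of fasting and feeding sets fatty acid synthesis against the release of stored fat.

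Promoter sequences are shown for the members on which the results turn, taken from RefSeq on GRCm38.p6 (mm10), written in the gene's direction and limited to the bases before the RefSeq start site. The first set belongs to genes of fat storage, with each CCAAT box (CCAAT, both strands) in capitals. It holds Fasn at chr11:120824555-120824705 on the minus strand, Angptl8 at chr9:21835277-21835427 on the plus strand, and the weaker and the stronger of 2 Pcx promoters, at chr19:4594171-4594318 and chr19:4510361-4510471 on the plus strand. Angptl8 and the weaker Pcx promoter held no CCAAT box in these bases.
Fasn: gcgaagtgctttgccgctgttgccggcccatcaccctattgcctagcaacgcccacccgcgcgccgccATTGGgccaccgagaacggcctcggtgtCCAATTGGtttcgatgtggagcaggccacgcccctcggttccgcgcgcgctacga
Angptl8: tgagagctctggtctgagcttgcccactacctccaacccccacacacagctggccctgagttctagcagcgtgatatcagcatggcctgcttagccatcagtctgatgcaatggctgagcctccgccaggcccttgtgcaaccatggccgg
Pcx weaker: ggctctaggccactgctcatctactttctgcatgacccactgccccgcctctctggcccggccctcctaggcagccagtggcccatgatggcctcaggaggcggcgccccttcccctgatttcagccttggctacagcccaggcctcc
Pcx stronger: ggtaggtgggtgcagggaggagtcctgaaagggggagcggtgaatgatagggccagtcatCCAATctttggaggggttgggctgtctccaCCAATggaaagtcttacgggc

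The second set holds promoters with an E-box (CACGTG, which reads the same on both strands) that lay on a BMAL1 peak, with the E-box in capitals. Ciart and Bhlhe41 belong to the clock, Ldha to glycolysis and Ppp1r3c to glycogen storage. They lie at chr3:95882321-95882471 (minus strand), chr6:145865447-145865597 (minus strand), chr7:46845681-46845803 (plus strand) and chr19:36736697-36736847 (minus strand).
Ciart: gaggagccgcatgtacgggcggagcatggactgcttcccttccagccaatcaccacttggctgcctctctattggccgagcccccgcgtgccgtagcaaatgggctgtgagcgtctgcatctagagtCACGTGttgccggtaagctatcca
Bhlhe41: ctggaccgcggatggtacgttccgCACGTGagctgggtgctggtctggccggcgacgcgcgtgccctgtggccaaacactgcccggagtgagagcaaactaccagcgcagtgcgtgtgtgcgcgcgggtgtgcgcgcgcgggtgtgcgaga
Ldha: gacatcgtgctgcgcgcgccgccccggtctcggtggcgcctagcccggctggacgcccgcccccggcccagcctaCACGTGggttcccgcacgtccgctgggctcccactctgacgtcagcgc
Ppp1r3c: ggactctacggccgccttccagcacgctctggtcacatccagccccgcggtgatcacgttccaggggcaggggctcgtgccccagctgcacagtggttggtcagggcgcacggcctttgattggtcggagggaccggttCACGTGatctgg

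The third set shows the GC box (GGGCGG, both strands), the motif whose share differed most between promoters that peaked in the light and in the dark phase. Sntg2 (chr12:30373376-30373445, minus strand) peaked in the light phase, and Tenm4 (chr7:96171086-96171236, plus strand) and Nfil3 (chr13:52981060-52981210, minus strand) peaked in the dark phase. Nfil3 goes against the general difference, with 9 GC boxes in capitals, some of them overlapping.
Sntg2: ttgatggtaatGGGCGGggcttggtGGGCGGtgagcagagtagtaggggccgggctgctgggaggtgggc
Tenm4: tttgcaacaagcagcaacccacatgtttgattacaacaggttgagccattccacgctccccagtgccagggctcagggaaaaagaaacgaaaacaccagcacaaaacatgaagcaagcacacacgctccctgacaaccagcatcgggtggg
Nfil3: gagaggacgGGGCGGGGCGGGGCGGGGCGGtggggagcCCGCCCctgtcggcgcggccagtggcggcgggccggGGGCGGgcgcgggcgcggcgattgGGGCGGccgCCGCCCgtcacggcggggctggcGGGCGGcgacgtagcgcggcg

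The regions were 150 bp wide by the deposited coordinates and lay between −1000 and 897 bp from the start site, with a median of −49 bp and 6886 (72.8%) within 100 bp. They belonged to 8835 gene symbols, and 9050 regions had a protein-coding gene. Of the genes, 8246 had 1 promoter region, 552 had 2 and 37 had 3 or more, the most being 5 for Plec, which encodes the cytoskeletal linker plectin. Promoters were more open than the other 15587 regions, with a median of 45.4 CPM (tags scaled to a fixed library total, with TMM) against 27.4. The level of openness ran from 16.8 CPM to 237 CPM among promoters, and no promoter had fewer than 7 tags in any library. A region of the brown adipose tissue (BAT) peak set overlapped 8902 promoters (94.1%) and 81.6% of the other regions. A BMAL1 peak overlapped 3493 promoters (36.9%) and 14.7% of the other regions, with at least 75 bp in common in both comparisons.

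ATAC libraries held 1623006 to 5294923 tags in peaks, and RNA libraries 1301522 to 6481154 counts. In RNA, ribosomal RNA loci took 5.26% to 66.0% of the counts, and 3 libraries (ZT5 replicate 3, ZT9 replicate 3 and ZT17 replicate 2) were above 50%. Across promoters, the median correlation of 1 ATAC library with the others ran from 0.925 to 0.951, and no library was a copy of another. All 9463 promoters passed the filter on low tags. To check the label of adipocyte nuclei, marker genes were looked up: 12 of 16 adipocyte genes had a promoter region, among them Adipoq (101 CPM), Lipe (143 CPM) and Plin1 (91.1 CPM). None of the macrophage, lymphocyte, endothelial, fibroblast, epithelial or erythroid marker genes on the lists had one. Of 8 skeletal muscle markers 1 did, Mylpf, at 134 CPM, above Adipoq and Plin1. Cebpa, Cebpb, Cfd and Adrb3 also had none, so a missing region does not say that a gene is silent.

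Promoters took a smaller share of all ATAC tags in peaks in the dark phase than in the light phase. The share was 50.2% ± 0.611 (SD, n = 3) at ZT1, 49.3% ± 0.587 at ZT5, 49.0% ± 0.293 at ZT9, 48.6% ± 0.142 at ZT13, 47.6% ± 0.185 at ZT17 and 48.0% ± 0.437 at ZT21. The 9 light libraries ran from 48.6% to 50.7% and the 9 dark libraries from 47.4% to 48.8%, so the groups overlapped narrowly. The mean was 49.5% ± 0.682 (SD, n = 9) in the light and 48.1% ± 0.510 (SD, n = 9) in the dark. The difference was −1.45 percentage points, with p = 0.000123 in an exact two-sided permutation test over libraries. This share needs no scaling between libraries, and it says only that promoters and other regions moved apart, not which of them moved.

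**Figure D1:**
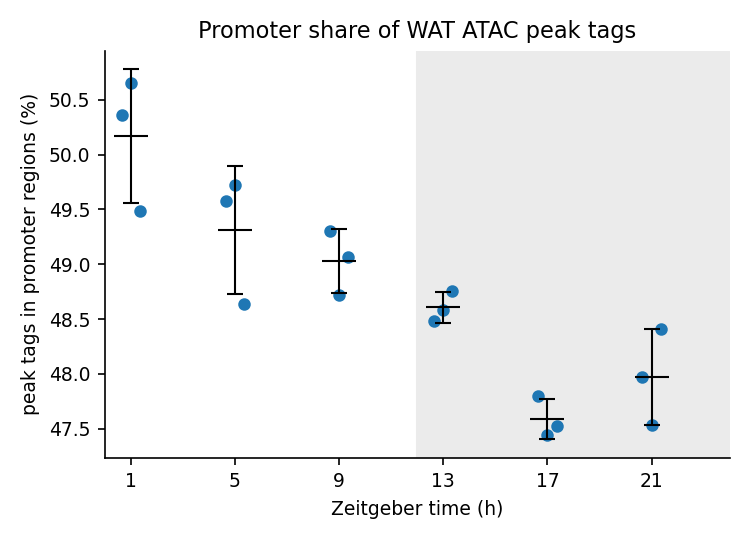
Share of ATAC peak tags in promoter regions (percent) by Zeitgeber time (h), 1 point per library, with the mean of 3 libraries and its SD, and the dark phase shaded. The ZT1 libraries sit highest, at 49.5% to 50.7%, and the ZT17 libraries lowest, at 47.4% to 47.8%.

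A 24 h rhythm was found in 567 promoters (5.99%), against 3401 (21.8%) of the other regions and 15.8% of all regions. Rhythms were fitted with edgeR's quasi-likelihood test and called at an adjusted p under 0.05. The gap was there at every level of openness: 8.52% of promoters against 22.3% of other regions were called between 15 and 20 CPM, 5.92% against 22.2% between 30 and 50 CPM, and 5.79% against 13.4% at 80 CPM and above. Counted at an unadjusted p under 0.05, the shares were 17.4% of promoters and 38.8% of other regions. In the authors' deposited table of JTK_CYCLE results, 331 of 9461 promoters (3.50%) and 1822 of 15564 other regions (11.7%) had a q-value under 0.05, and edgeR also called 294 of those 331 promoters.

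Rhythms of promoters were shallow. The peak-to-trough difference, on the log2 scale, had a median of 0.45 (1.37-fold) over the 567 called promoters, with quartiles of 0.34 and 0.65, and a median of 0.17 over all promoters against 0.34 over the other regions. A difference of at least 2-fold was fitted in 28 of the called promoters (4.94%) and in 682 of the other called regions (20.1%). Depth limits what could be called: on simulated ATAC tags of all 25050 regions, the fit found 40% of rhythms with a log2 difference of 0.5 and 92% of those with 1. The simulation planted 50 rhythms of each size in regions of all kinds, fewer than were called in the data, and promoters were more open than other regions. Its shares are therefore not those of promoters, and how many weak promoter rhythms were missed was not measured. Called promoters of 80 CPM and above had a median difference of 0.28.

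**Figure D2:**
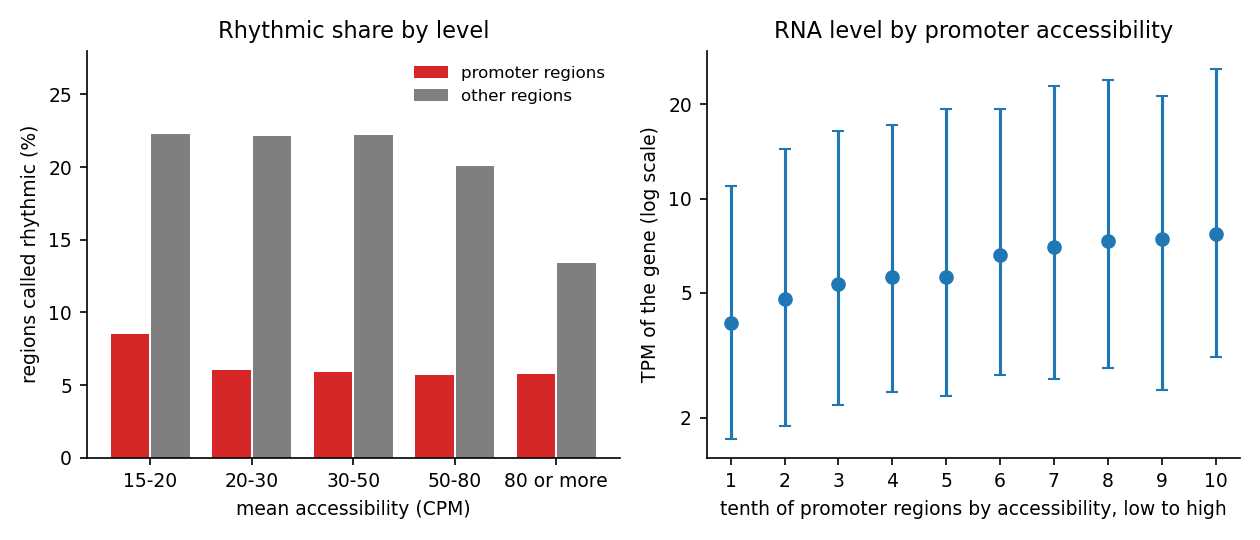
Left, percent of regions called rhythmic by mean openness (CPM bins), for promoters and other regions. Right, mean TPM of the nearest gene (median and quartiles, log axis) by decile of promoter openness; the rhythmic share of promoters lies between 5.72% and 6.04% in the bins from 20 CPM up, and the median TPM rises from 4.02 to 7.72.

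Among the 10 promoters of lowest rhythm p, most were less open than the median promoter, and Sulf1, Adamts14 and Col5a3 belong to genes of the extracellular matrix. Sulf1, which encodes a sulfatase that edits heparan sulfate outside the cell, measured 9.83, 12 and 13.6 CPM at ZT1, 19.0, 22.8 and 19.8 at ZT5, 33.3, 30.9 and 42.4 at ZT9, 24.8, 33.3 and 28.2 at ZT13, 21, 13.7 and 17.6 at ZT17, and 17.7, 13.7 and 8.66 at ZT21. All ZT9 libraries were above every library of ZT1, ZT5, ZT17 and ZT21. Its log2 peak-to-trough difference was 1.54 ± 0.18 (SE) with a peak at ZT10.5 (edgeR adjusted p = 3.04e-05). The extracellular protease gene Adamts14 followed the same course, with 1.5 ± 0.18 and a peak at ZT10.3 (edgeR adjusted p = 4.22e-05), as did the interferon-induced gene Ifit3b, with 1.25 and ZT10.8.

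Col5a3, a fibrillar collagen gene, peaked at the other end of the day. Its promoter measured 36.5, 33.9 and 25.3 CPM at ZT1, 14.6, 25.7 and 17.7 at ZT5, 16.2, 12.9 and 23.7 at ZT9, 16.2, 16.4 and 15.8 at ZT13, 14.6, 36.5 and 23.8 at ZT17, and 43.6, 54.6 and 53.8 at ZT21. The 3 ZT21 libraries stood above all 15 others. The fit gave 1.61 ± 0.23 with a peak at ZT22.0 (edgeR adjusted p = 0.000189). Tenm4, a teneurin gene, peaked at ZT20.0 (difference 1.10 ± 0.15, edgeR adjusted p = 0.000135), with 43.2, 44.5 and 42 CPM at ZT21 against 17, 18.1 and 21.4 at ZT5. The others of the 10 were Marveld1 (1.04, peak ZT12.1), Adcy10 (0.98, ZT20.2), Sntg2 (0.84, ZT6.19), Mt2 and Angptl8, and all 10 calls held when any 1 library was left out. The largest difference of all called promoters was fitted for Angpt4, chosen after its values were seen: 2.02 ± 0.32 on the log2 scale (4.07-fold), with a peak at ZT10.6 and a region at −586 bp from the start site (edgeR adjusted p = 0.000495).

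Where the called rhythms peaked depended on how the libraries were scaled. Scaled over all regions, 400 promoters (70.5%) peaked in the light phase and 167 (29.5%) in the dark phase, while 36.5% of the other rhythmic regions peaked in the light. Scaled over promoters alone, 514 were called (5.43%), and 230 (44.7%) peaked in the light and 284 (55.3%) in the dark, against 27.3% of other regions in the light. Both scalings called 415 promoters, 249 with a light peak and 166 with a dark peak, and each of the 415 had fitted peaks within 4 h of each other under the 2 scalings. Under either scaling, promoters peaked in the light phase more often than other regions did. The scalings differ in the dark-minus-light difference of a promoter by 0.05 on the log2 scale.

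**Figure D3:**
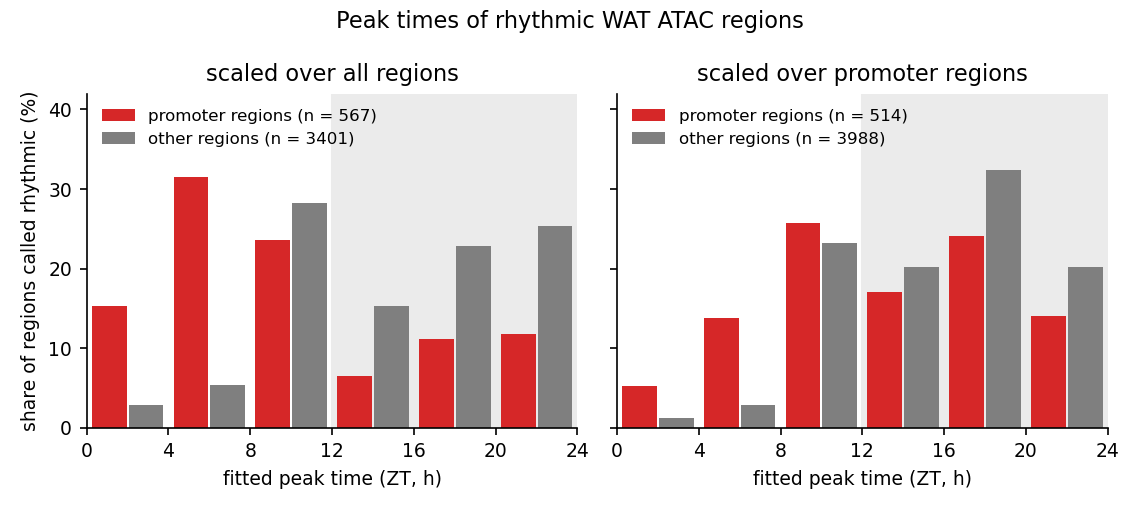
Fitted peak times (ZT, h, in bins of 4 h) of regions called rhythmic, as percent of the called set, for promoters and other regions under both scalings. Of the promoters, 31.6% peaked between ZT4 and ZT8 when scaled over all regions and 13.8% when scaled over promoters.

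Dark and light phases were also compared directly. Scaled over all regions, 77 promoters (0.814%) were higher and 247 (2.61%) lower in the dark, against 4.27% and 2.46% of all regions and 6.37% and 2.37% of the other regions. Scaled over promoters alone, 170 (1.8%) were higher and 93 (0.983%) lower, against 7.74% and 1.29% of all regions and 11.3% and 1.48% of the other regions. The 77 higher and the 93 lower promoters were called under both scalings, and no promoter was called in opposite directions. The median dark-minus-light difference was −0.05 for promoters and 0.05 for other regions, and 71.8% of promoters against 38.5% of other regions were lower in the dark. The total of 324 calls fell to 163 without ZT5 replicate 2, 187 without ZT1 replicate 2 and 204 without ZT17 replicate 2, and without ZT9 replicate 1 the promoters lower in the dark fell to 158.

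Base composition differed between promoters that peaked in the light and in the dark. RefSeq promoter windows (250 bases before to 50 after a start site) of their own gene overlapped 6775 regions. Their median GC content was 62.3%. It was 65.7% for called promoters with a light peak (275 windows) and 58.3% for those with a dark peak (95 windows). Among promoters called under both scalings, it was 64.8% (164 windows) and 58.3% (94 windows). With the promoters split into 4 equal classes by GC content, 103 called promoters of the highest class peaked in the light and 19 in the dark, and in the lowest class 48 and 42. Scaled over promoters, these counts were 48 and 34, and 34 and 64. GC content weighted by tags was 63.6% ± 0.0470 (SD, n = 9) in light libraries and 63.5% ± 0.0395 (SD, n = 9) in dark libraries. Its part in the peak times was not tested.

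Motifs in these windows are given as matches of letters on either strand. The GC box (GGGCGG) was in 73.7% of all matched promoters and in 35.7% of all 32851 RefSeq promoter windows. It was in 76.7% of the light-peaking and 49.5% of the dark-peaking promoters, and in 75.6% and 50.0% of those called under both scalings. The TATA box (TATAAA) was in 5.27% of all matched promoters, 5.09% of the light-peaking, 11.6% of the dark-peaking and 13.6% of all windows. The CCAAT box was in 42.1% of all matched promoters, 35.6% of the light-peaking, 50.5% of the dark-peaking and 37.4% of all windows. Among promoters called under both scalings, the TATA box was in 5.49% of the light-peaking and 11.7% of the dark-peaking ones, and the CCAAT box in 39.6% and 50.0%. The ETS core (CCGGAAG) was in 21.5% of all matched promoters and 8.86% of all windows, and in 15.6% and 9.47% of the light-peaking and dark-peaking ones. For the E-box, the shares were 11.3% of all matched promoters, 11.3% of the light-peaking, 9.47% of the dark-peaking and 7.15% of all windows. The D-box (TTATGNAA), the site of DBP, TEF and NFIL3, was in 1.55% of all matched promoters and 3.38% of all windows. It was in 3 of 275 light-peaking (1.09%) and 3 of 95 dark-peaking windows (3.16%), too few to compare. Among those called under both scalings, it was in 3 of 164 (1.83%) and 3 of 94 (3.19%). BMAL1 peaks overlapped 30.3% of the called and 37.3% of the other promoters.

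The called promoters of fatty acid synthesis were, but for 1, most open in the dark phase. Of 14 promoter regions of fatty acid synthesis genes, 4 were called rhythmic (Fasn, the weaker Pcx promoter and 2 of Scd1), against 5.99% of all promoters. Of the 4, 3 had a dark peak, and all 4 were called under both scalings. The median difference over the 14 was 0.22 on the log2 scale, against 0.17 over all promoters. RNA was called for 9 of 15 genes of the list, all 9 with a dark peak, against 9.9% of all genes tested. The list was written with earlier results of these data known.

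Fasn (ENSMUSG00000025153), the enzyme that builds palmitate, had a promoter region at chr11:120824555-120824705. It measured 57.4, 51.4 and 56.9 CPM at ZT1, 43.8, 44.4 and 48.8 at ZT5, 39.5, 50.4 and 47.3 at ZT9, 53.8, 54.2 and 69.2 at ZT13, 60.7, 75.2 and 89.3 at ZT17, and 66.6, 54.4 and 79.1 at ZT21. Every library of ZT13, ZT17 and ZT21 was above every library of ZT5 and ZT9, and the ZT1 libraries overlapped with the lowest of the dark ones. The difference was 0.70 ± 0.12 with a peak at ZT18.3 (edgeR adjusted p = 0.000966). Fasn RNA was 105, 121 and 228 CPM at ZT1, 43.8, 64.2 and 76.3 at ZT5, 54.5, 124 and 82.4 at ZT9, 82.2, 102 and 68.7 at ZT13, 131, 729 and 139 at ZT17, and 198, 396 and 274 at ZT21. One ZT17 library was more than 5 times as high as the other ZT17 libraries, and the ZT21 libraries were above all those of ZT5, ZT9 and ZT13. The RNA difference was 2.39 ± 0.43 with a peak at ZT19.4 (edgeR adjusted p = 0.00526).

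Pcx (ENSMUSG00000024892), the pyruvate carboxylase that feeds the export of acetyl units for lipid synthesis, had 2 promoters at separate start sites on chromosome 19. The weaker one measured 35.3, 25.5 and 44.1 CPM at ZT1, 28.2, 25.5 and 31.6 at ZT5, 26.3, 30.2 and 35.2 at ZT9, 40.8, 33.3 and 32.4 at ZT13, 42.5, 57.5 and 56.3 at ZT17, and 48.9, 40.1 and 44.5 at ZT21. Its 3 ZT17 libraries were above all light libraries but 1 of ZT1. Its difference was 0.83 ± 0.14 with a peak at ZT18.4 (edgeR adjusted p = 0.00103). The stronger promoter ran from 99.2 to 139 CPM over the 18 libraries, with a difference of 0.15 ± 0.08 (edgeR adjusted p = 0.407). Pcx RNA rose and fell by 1.69 ± 0.28 with a peak at ZT19.1 (edgeR adjusted p = 0.00291), and RNA counts of the gene do not tell the 2 start sites apart.

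Other promoters of the pathway moved less than their RNA. Me1, the malic enzyme, had RNA with a difference of 2.95 and a promoter with 0.54 ± 0.17 (edgeR adjusted p = 0.0833, and 0.0439 when scaled over promoters). Srebf1, which encodes the lipogenic regulator SREBP1, had RNA with 2.20 ± 0.39, and its stronger promoter had 0.13 ± 0.09 (edgeR adjusted p = 0.564). For Scd1, the stearoyl-CoA desaturase, promoter regions were called and the RNA was not. Its nearer promoter region had 0.92 ± 0.25 with a peak at ZT13.8 (edgeR adjusted p = 0.0338) and its RNA had 0.57 ± 0.38 (edgeR adjusted p = 0.568). These 2 differences overlap within their SEs, so they do not show that the promoter moved more than the RNA. The call of the nearer Scd1 region held in 9 of the 18 fits that left out 1 library, with the highest adjusted p, 0.0883, without ZT1 replicate 1. The second Scd1 region (adjusted p = 0.0468) held in 4 of them, with the highest, 0.102, without ZT9 replicate 3.

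Angptl8 (ENSMUSG00000047822), a secreted factor that blocks lipoprotein lipase after feeding, had the largest RNA rhythm of the named genes. Its promoter region at chr9:21835277-21835427 measured 54.4, 51.4 and 44.5 CPM at ZT1, 40.4, 38.3 and 35.9 at ZT5, 36.4, 39.2 and 33.6 at ZT9, 42.6, 36.5 and 57.6 at ZT13, 61.8, 67.8 and 73.9 at ZT17, and 61.3, 57.8 and 58.1 at ZT21. All ZT17 and ZT21 libraries were above all others. The difference was 0.87 ± 0.11 with a peak at ZT19.3 (edgeR adjusted p = 8.17e-05). Its RNA was at most 2.55 CPM in every library from ZT1 to ZT13, and measured 7.45, 10.5 and 12.3 CPM at ZT17 and 16.8, 3.39 and 15.7 at ZT21, a difference of 5.21 ± 0.70 with a peak at ZT18.9 (edgeR adjusted p = 0.000671).

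Of 13 promoters of lipolysis and lipid droplet genes, 3 were called, against 5.99% of all promoters: Angptl8, Plin2 and Pnpla2. RNA was called for 5 of 14 genes, 3 with a dark peak and 2 with a light peak, against 9.9% of all genes. Pnpla2, the triglyceride lipase ATGL that starts the breakdown of stored fat, was the light-peaking promoter. It measured 70.0, 83.7 and 78.4 CPM at ZT1, 90.4, 89.5 and 81.4 at ZT5, 87.8, 65.5 and 75.4 at ZT9, 69.5, 65.8 and 68.7 at ZT13, 72.6, 53.6 and 70.4 at ZT17, and 64.6, 73.6 and 50.7 at ZT21. The ZT5 libraries stood above all dark libraries, while those of ZT1 and ZT9 overlapped with them. Its difference was 0.39 ± 0.10 with a peak at ZT5.10 (edgeR adjusted p = 0.026), and the adjusted p was 0.0715 when scaled over promoters and up to 0.0797 with 1 library left out, without ZT5 replicate 2. Its RNA peaked at ZT11.1 with 1.57 ± 0.36 (edgeR adjusted p = 0.0197). That RNA call held in 13 of 18 fits with 1 library left out, with the highest adjusted p, 0.0682, without ZT21 replicate 1.

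Plin2, a droplet coat protein, had a promoter difference of 0.32 ± 0.09 with a peak at ZT18.4 (edgeR adjusted p = 0.0431). That call held in 4 of 18 fits with 1 library left out (adjusted p up to 0.171, without ZT5 replicate 2), and DESeq2 did not make it (adjusted p = 0.0671). Its RNA had 2.73 ± 0.39 with a peak at ZT19.4 (edgeR adjusted p = 0.00119). G0s2, an inhibitor of ATGL, had RNA with 3.13 ± 0.46 and a peak at ZT17.9 (edgeR adjusted p = 0.0013). Its promoter had 0.26 ± 0.12 (edgeR adjusted p = 0.28) and ran from 50.0 to 86.2 CPM. Fabp4, the fatty acid carrier of adipocytes, had a promoter with 0.06 ± 0.14 (edgeR adjusted p = 0.949), at a mean of 64.2 CPM.

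Triglyceride synthesis had 1 of 8 promoters called, a Dgat2 region at −10 bp from the start site with a difference of 0.49 ± 0.13 and a peak at ZT16.4 (edgeR adjusted p = 0.0315). With 8 promoters, that count is near the 5.99% of all promoters. RNA was called for 6 of 9 genes, all with a dark peak, against 9.9% of all genes. Dgat1, the other enzyme of the final step, had RNA with 2.13 and a promoter with 0.07 ± 0.07 (edgeR adjusted p = 0.729). Agpat2, which acylates lysophosphatidic acid, had a promoter with 0.45 ± 0.14, a peak at ZT17 and an adjusted p of 0.0762 by edgeR, which became 0.035 when scaled over promoters.

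Ldha, Ppp1r3b, Ppp1r3c and Tkt were among the genes whose promoter and RNA were both rhythmic. Ldha, lactate dehydrogenase A, measured 31.6, 31.1 and 29.6 CPM at ZT1, 34.5, 34.1 and 31.6 at ZT5, 44.3, 41.3 and 42.9 at ZT9, 39.4, 42.5 and 50.8 at ZT13, 47.7, 48.4 and 46.6 at ZT17, and 37.8, 32.3 and 32.8 at ZT21. The libraries of ZT9, ZT13 and ZT17 were all above those of the other times. The promoter had 0.62 ± 0.10 with a peak at ZT13.7 (edgeR adjusted p = 0.000576) and the RNA 1.92 ± 0.32 with a peak at ZT20.0 (edgeR adjusted p = 0.00338). Ppp1r3b and Ppp1r3c, which encode subunits that direct protein phosphatase 1 to glycogen, had promoters with 0.88 ± 0.15 and a peak at ZT15.2 (edgeR adjusted p = 0.0012), and 0.42 ± 0.10 and a peak at ZT15.7 (edgeR adjusted p = 0.0184). Their RNA had 2.65 ± 0.46 with a peak at ZT18.1 and 2.43 ± 0.34 with a peak at ZT19.2. The Ppp1r3c promoter call ended without ZT17 replicate 3 (adjusted p = 0.051).

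Tkt, the transketolase of the pentose phosphate pathway, had a called region at −884 bp from its start site. It had a difference of 0.48 ± 0.12 and a peak at ZT14.8 (edgeR adjusted p = 0.0208), and without ZT17 replicate 3 the adjusted p was 0.0501. The stronger Tkt region, at the start site itself, had 0.23 ± 0.10 (edgeR adjusted p = 0.232). Tkt RNA had 3.32 ± 0.46 with a peak at ZT20.1 (edgeR adjusted p = 0.000813).

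**Figure D4:**
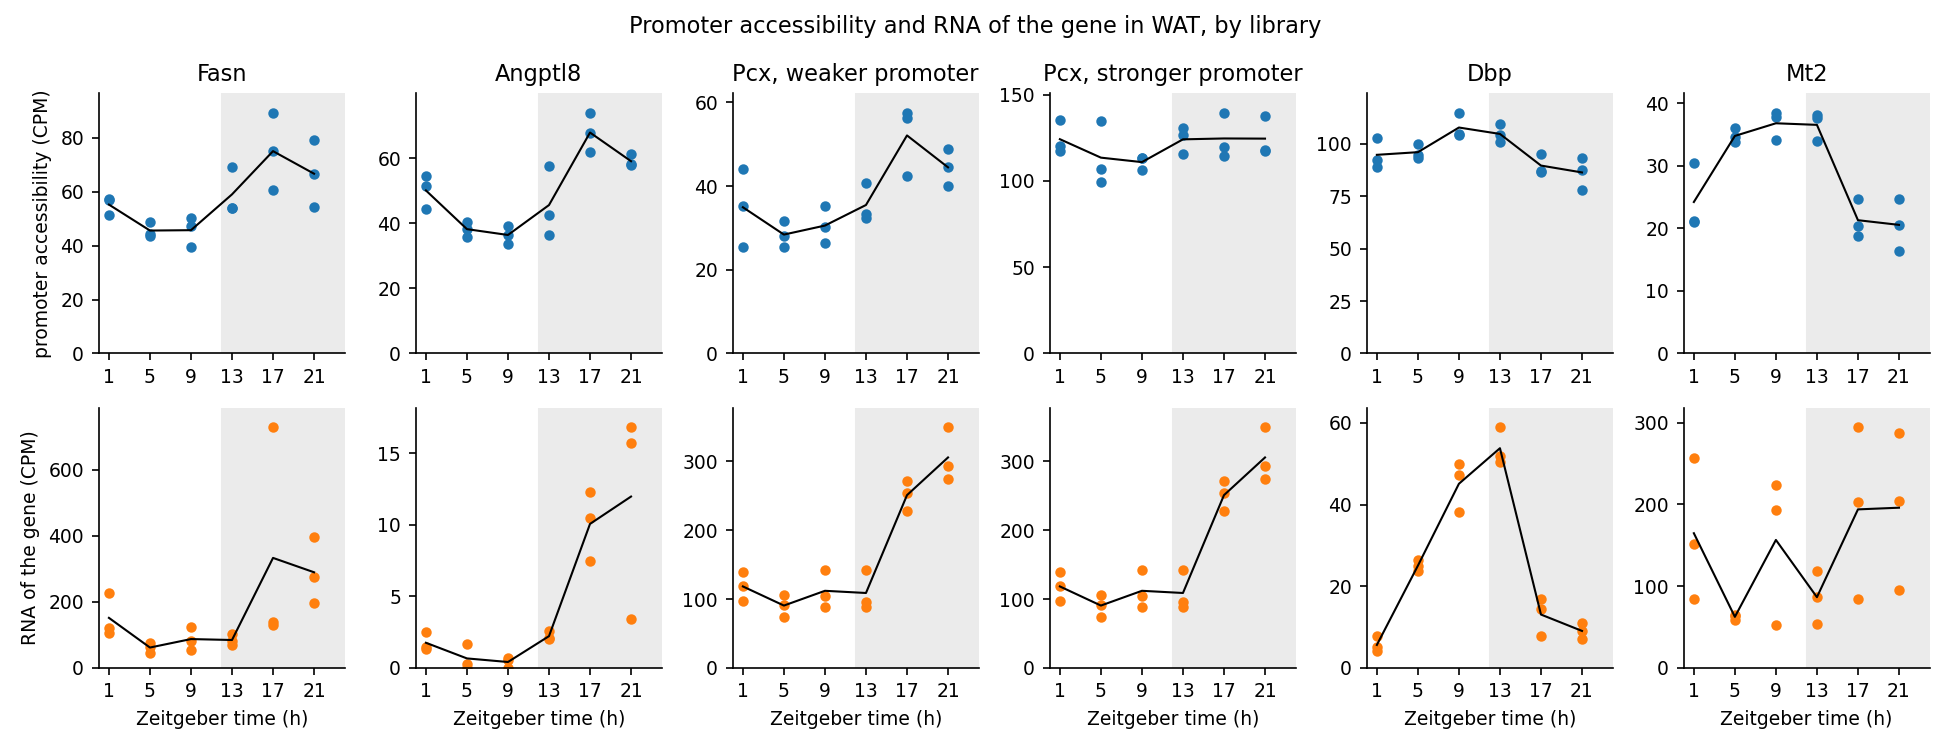
Openness of 6 promoter regions (top, CPM) and RNA of the nearest gene (bottom, CPM) by Zeitgeber time (h), 1 point per library, with a line through the mean of 3 libraries and the dark phase in grey. Fasn, Angptl8 and the weaker Pcx promoter are highest at ZT17 or ZT21 with their RNA, the stronger Pcx promoter stays between 99.2 and 139 CPM, Dbp peaks near ZT9 and ZT13 on both scales, and the Mt2 promoter is lowest at ZT17, ZT21 and ZT1.

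Clock genes had 26 promoter regions in 20 of 22 genes (none for Npas2 and Per1), and 6 were called, all 6 under both scalings, against 5.99% of all promoters. The median difference over the 26 was 0.25. Tef, Bhlhe41, Dbp and Ciart peaked late in the light phase, at ZT9.90, ZT9.94, ZT9.42 and ZT11. Nfil3 and Arntl peaked at ZT20.2 and ZT20.3, in the dark phase. RNA was called for 5 of 21 clock genes (Dbp, Tef, Nr1d1, Nr1d2 and Bhlhe40), against 9.9% of all genes. The Nr1d1 RNA call ended without the 3 libraries rich in ribosomal RNA (edgeR adjusted p = 0.0598). The Dbp RNA call held in all 18 fits with 1 library left out. The RNA calls of Nr1d1, Nr1d2 and Bhlhe40 held in 13, 7 and 7 of them. Their highest edgeR adjusted p were 0.0803 and 0.116, both without ZT21 replicate 3, and 0.115 without ZT17 replicate 3.

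Dbp (ENSMUSG00000059824), a D-box activator, had the highest BMAL1 peak score of the clock promoters, 127 in the deposited table against a median of 6.85 over promoters on a BMAL1 peak. Its region at chr7:45704901-45705051 measured 103, 88.9 and 92.4 CPM at ZT1, 99.7, 93.4 and 94.8 at ZT5, 104, 115 and 104 at ZT9, 104, 109 and 101 at ZT13, 94.9, 87.2 and 86.7 at ZT17, and 78.1, 87.5 and 93.4 at ZT21. The ZT9 and ZT13 libraries lay above those of ZT17 and ZT21 and overlapped with ZT1. The difference was 0.31 ± 0.07 (edgeR adjusted p = 0.00819). Its RNA went from 5.11, 4.03 and 7.70 CPM at ZT1 to 51.9, 59.0 and 50.5 at ZT13, with 3.24 ± 0.33 and a peak at ZT10.6 (edgeR adjusted p = 2.75e-05). The fitted swing of the promoter was smaller than that of the RNA.

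Bhlhe41, an E-box repressor, had the largest difference of the clock promoters, 0.86 ± 0.16 (edgeR adjusted p = 0.00231), with 55.7, 52.1 and 45.7 CPM at ZT9 against 34.1, 31.5 and 26.9 at ZT1 and a wide spread of 16, 24.5 and 45.8 at ZT21. Its RNA had 1.51 ± 0.50 (edgeR adjusted p = 0.11). Tef, a D-box activator like Dbp, had 0.50 ± 0.09 (edgeR adjusted p = 0.00246), and its RNA 1.3 ± 0.34 with a peak at ZT13.3 (edgeR adjusted p = 0.0392, held in 5 of 18 fits with 1 library left out and highest, 0.0936, without ZT13 replicate 3). Nfil3, the repressor at D-boxes, had 0.40 ± 0.09 (edgeR adjusted p = 0.00873). Arntl, the gene of BMAL1 itself, had 0.34 ± 0.09 (edgeR adjusted p = 0.0233), and its call held in 14 of 18 such fits, with the highest adjusted p, 0.079, without ZT21 replicate 2. Ciart, a repressor of BMAL1 and CLOCK, had 0.44 ± 0.12 (edgeR adjusted p = 0.0309). That call held in 12 of 18, and its highest adjusted p was 0.0707, also without ZT21 replicate 2.

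Nr1d1, which encodes REV-ERB alpha, missed the rhythm call at 0.44 ± 0.13 (edgeR adjusted p = 0.0502), and was lower in the dark phase. It measured 78.9, 77.7 and 83.5 CPM at ZT1, 56.9, 62.7 and 65.4 at ZT5, 72.4, 69.2 and 70.4 at ZT9, 59.3, 63.4 and 52.9 at ZT13, 50.0, 58.7 and 59.0 at ZT17, and 44.0, 54.6 and 49.5 at ZT21. Libraries of ZT1 and ZT9 were above all dark ones, and those of ZT5 overlapped with ZT13. The dark-minus-light difference was −0.36 on the log2 scale (edgeR adjusted p = 0.000685, and 0.002 when scaled over promoters). Per2 was called only when scaled over promoters (adjusted p = 0.0433, against 0.122 by the scaling over all regions, both by edgeR).

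The metallothionein genes Mt1 and Mt2, which bind zinc and respond to glucocorticoids and metals, made up the 3 called of 10 promoters on the glucocorticoid list, against 5.99% of all promoters. Apart from the Mt2 region at the start site, they were chosen after their values were seen. That Mt2 region measured 30.4, 21.1 and 21.1 CPM at ZT1, 34.5, 36.0 and 33.8 at ZT5, 37.7, 38.4 and 34.1 at ZT9, 34.0, 38 and 37.6 at ZT13, 20.4, 18.8 and 24.6 at ZT17, and 16.4, 20.4 and 24.7 at ZT21. All libraries from ZT5 to ZT13 stood above all those from ZT17 to ZT1. The difference was 1.01 ± 0.14 with a peak at ZT8.82 (edgeR adjusted p = 0.000151). An Mt2 region at −957 bp from the start site (1.12 ± 0.22, ZT10.5) and the Mt1 promoter (0.43 ± 0.08, ZT8.72) peaked close to it. RNA of Mt2 had 0.96 ± 0.46 (edgeR adjusted p = 0.336), and RNA of Mt1 had 1.40 with a fitted peak at ZT19.4 (edgeR adjusted p = 0.06). RNA was called for 2 of 10 genes of the list, Fkbp5 (1.88 ± 0.40, peak ZT10.9) and Errfi1 (2.4 ± 0.63, peak ZT5.01), against 9.9% of all genes, and their promoters were not called.

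Of the 10 promoters of immediate early factors, which respond fast to signals, 4 were called, against 5.99% of all promoters: Junb (0.56 ± 0.12, peak ZT7.11), Myc (0.49 ± 0.13, ZT3.58), Egr2 (0.43 ± 0.11, ZT6.82) and Jun (0.22 ± 0.06, ZT23.1). Junb and Jun were called under both scalings. RNA was called for 0 of 10 of these genes by edgeR, which in 10 genes is near the 9.9% of all genes. Of the 10, 4 had an unadjusted p under 0.05 and DESeq2 called 2. Insulin signalling had 0 of 13 promoters called by edgeR, 2 at an unadjusted p under 0.05 and 1 by DESeq2. The 2 promoter regions of thermogenic genes were not called either, by edgeR or DESeq2, nor at an unadjusted p under 0.05, and 10 of the 12 genes, Ucp1 among them, had no promoter region in the set. At 5.99%, counts of 0 in 13 or in 2 promoters are near the share over all promoters. For adipocyte identity, 2 of 15 promoters were called, Pnpla2 and a Pparg region, against 5.99% of all promoters. For heat shock, 1 of 13 was called, near that share: a Hsp90ab1 region at −639 bp from the start site (0.43 ± 0.10, peak ZT21.0). Heat shock RNA was called for 3 of 13 genes, Dnaja1, Hspa5 and Hspe1, all with a dark peak, against 9.9% of all genes. The Pparg call (0.52 ± 0.13, peak ZT20.3, edgeR adjusted p = 0.0207) ended without ZT21 replicate 2 (adjusted p = 0.107).

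For 2 housekeeping complexes, most promoters were not called, and part of the RNA was. Among 74 promoters of cytosolic ribosomal proteins, 1 was called (Rps12), with a median difference of 0.14, and RNA was called for 23 of 89 genes, 21 with a dark peak. The shares over all promoters and all genes were 5.99% and 9.9%. Among 31 proteasome promoters, 1 was called (Psmb2), a share of 3.23% that is near the 5.99% of all promoters, with a median of 0.14, and RNA was called for 17 of 38 genes, all 17 with a dark peak. These promoters were not weakly open: their median levels were 50.6 CPM and 46.4 CPM, against 45.4 CPM over all promoters. Ribosomal protein genes have many near-identical copies, so their RNA counts are uncertain.

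RNA of the genes nearest to promoters was rhythmic for 816 of 7791 genes tested (10.5%), against 9.9% of all genes and 8.98% of genes with no promoter region in the set. The called RNA peaked in the dark phase for 661 genes (81.0%), and between ZT16 and ZT20 for 432 (52.9%). In the dark phase 403 (5.17%) were higher and 136 (1.75%) lower, against 4.34% and 3.16% of all genes and 3.01% and 5.42% of genes with no promoter region. Marker RNA of other cells was lower in the median dark than in the median light library for the lists given here, and that of adipocytes higher, with wide overlap. The summed RNA of 8 macrophage markers was 57.5 to 191 CPM in light libraries and 28.7 to 178 in dark ones, that of 8 fibroblast markers 303 to 918 and 103 to 519, that of 7 muscle markers 20.3 to 433 and 5.66 to 134, and that of 16 adipocyte genes 10093 to 62693 and 10112 to 79142. Their part in these counts was not tested. In libraries of pulled-down RNA, the number of cells of a type, the RNA per cell and the purity of the pull-down cannot be told apart.

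RNA counts of calls depended on single libraries. The 816 became 533 without ZT1 replicate 2, 441 and 377 without ZT5 replicates 1 and 2, 306 and 1591 without ZT9 replicates 2 and 3, 339 and 322 without ZT17 replicates 1 and 3, and 298 and 328 without ZT21 replicates 1 and 3. Without the 3 libraries rich in ribosomal RNA it was 1714, with 796 of the 816 among them. The 539 genes that differed between phases became 261 and 95 without ZT1 replicates 1 and 3, 165 and 130 without ZT5 replicates 1 and 2, and 113, 145 and 1160 without ZT9 replicates 1, 2 and 3. They became 121 without ZT13 replicate 3, 161, 912 and 112 without ZT17 replicates 1, 2 and 3, and 140, 838 and 202 without ZT21 replicates 1, 2 and 3.

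Promoter and RNA were both rhythmic for 66 regions of 65 genes. Among called promoters with a tested gene, 66 of 488 (13.5%) had rhythmic RNA, and among promoters that were not called, 813 of 7901 (10.3%), with 10.5% for all promoter genes. Seen from the RNA, 7.51% of the promoters of rhythmic genes were called. The median difference over the 66 was 0.49 for the promoter and 1.74 for the RNA, and in none of the 66 was the promoter difference the larger one. Selection on both calls limits this comparison. The smallest RNA difference among the 66 was 0.97 (Fmo1), while promoters were called from 0.18 up. On simulated RNA, the fit found 0% of rhythms with a log2 difference of 0.5 and 6.12% of those with 1. Pairs with RNA as shallow as most called promoters could hardly enter the 66, so the medians do not compare promoters and RNA in general. Fitted peaks lay within 2 h of each other in 19 pairs, within 4 h in 34 and more than 8 h apart in 13. Taken the shorter way round the 24 h circle, the RNA peak came after the promoter peak in 47. That order means little for the pairs more than 8 h apart, and its relation to the mostly dark RNA peaks was not tested. Of 34 promoters that peaked in the dark, 25 were within 4 h of their RNA, and of 32 that peaked in the light, 9 were, while 52 of the 66 RNA peaks fell in the dark phase.

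Pairs that ran close together were Angptl8, Fasn, Dbp, Leo1 (promoter 0.53 ± 0.12 at ZT20.7, RNA 3.19 ± 0.38 at ZT20.3) and the weaker Pcx promoter. Leo1, a subunit of the PAF1 elongation complex, measured 46.1, 37.6 and 37.8 CPM at ZT17 and 40.7, 39.6 and 41.4 at ZT21, above all 12 libraries from ZT1 to ZT13. Of the 13 pairs more than 8 h apart, examples chosen after their values were seen were Bcat2, which breaks down branched-chain amino acids (promoter ZT6.37, RNA ZT18.5), and Vim, which encodes vimentin (promoter ZT17.4, RNA ZT8.30). B3galt2, a galactosyltransferase gene, peaked at ZT23.5 at its promoter and at ZT20.8 in RNA, and Col5a3 at ZT22.0 and ZT3.78. Slc25a10, the mitochondrial dicarboxylate carrier, was the gene with 2 called regions (0.40 ± 0.08 and 0.68 ± 0.11). BMAL1 peaks overlapped 20 of the 66, against 36.9% of all promoters and 30.3% of the called ones. The count of 66 became 37 and 32 without ZT5 replicates 1 and 2, 40 and 28 without ZT9 replicates 1 and 2, 42 without ZT13 replicate 3, 32 and 27 without ZT17 replicates 1 and 3, and 27 and 32 without ZT21 replicates 1 and 3, each left out of both data types.

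**Figure D5:**
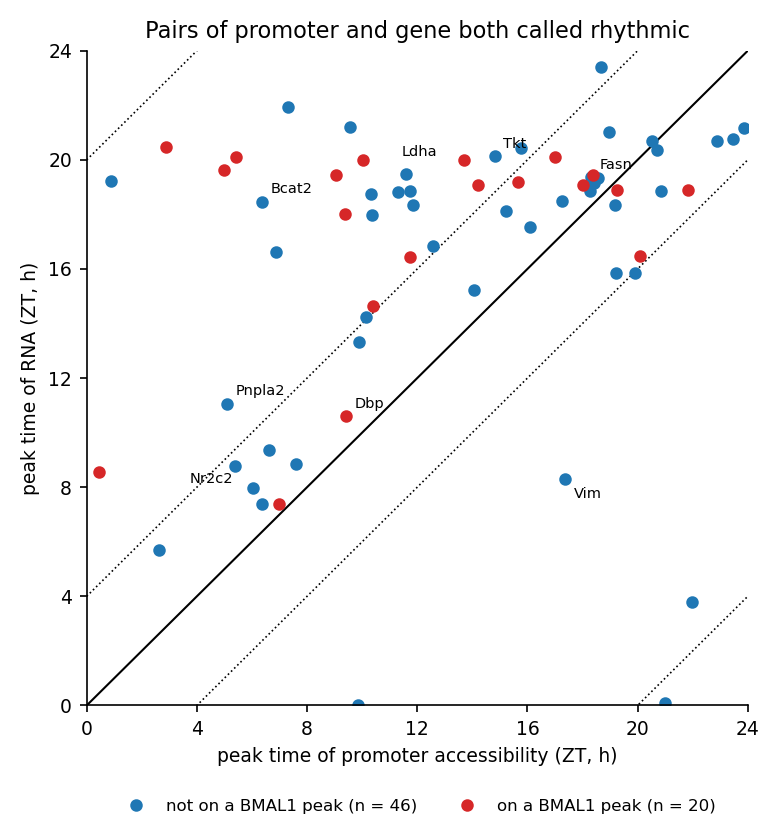
Fitted peak time of the promoter (ZT, h) against that of the RNA (ZT, h) for the 66 pairs called in both, with equal times as a solid line and 4 h on either side dotted. The 20 pairs on a BMAL1 peak are red and the 46 others blue, and most RNA peaks lie in the dark phase whatever the time of the promoter peak.

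Among promoters in the peak set, mean openness was only weakly related to the RNA level of the gene. The set starts at 16.8 CPM, so genes with no open promoter did not enter and the relation does not cover them. Over 8256 regions whose gene had a TPM above 0, Pearson's r between log2 openness and log2 TPM was 0.117 and Spearman's rho 0.122, as a description across regions that share libraries and depth. The median TPM rose from 4.02 in the lowest to 7.72 in the highest decile of openness, while the quartiles of a single decile ran from 1.7 to 11 in the lowest and from 3.12 to 25.9 in the highest. The most open promoters were those of Hjurp (237 CPM), Cdca2 (183 CPM), Mir466d (182 CPM), Abtb1 (180 CPM) and 4932412D23Rik (178 CPM). Hjurp, a chaperone of centromeric histones, had a mean TPM of 2.99. Mir466d belongs to a family of near-identical copies, so its tags are uncertain.

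Open promoters with little RNA were Pcnx4 (142 CPM, 0.789 TPM), 4632427E13Rik (136 CPM, 0.766 TPM), Phtf2, E2f3 and Garnl3. Each region was matched to its nearest gene only, and 1058 promoter regions (11.2%) overlapped RefSeq windows of 2 or more genes. Whether the openness of these promoters belongs to a neighbouring gene was not tested. At the other end, Srsf11, a splicing factor gene, had 18 CPM and 918 TPM, and Ndufa4, a subunit of the respiratory chain, had 19.1 CPM and 1065 TPM. Cald1 (17.7 CPM, 367 TPM), Sec62 (17.7 CPM, 269 TPM) and the second Scd1 region (18.5 CPM, 169 TPM) were like them. Among Plec's 5 promoter regions, openness ran from 25.9 to 32.8 CPM, and 1, at chr15:76209060-76209210, was called (0.48 ± 0.14, peak ZT17.2, edgeR adjusted p = 0.0431). That call held in 6 of 18 fits with 1 library left out, with the highest adjusted p, 0.116, without ZT5 replicate 2. Overlap with BMAL1 peaks rose with openness, from 18.5% in the lowest decile to 45.5% in the highest.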

How the data were processed

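Per the labels, sorted adipocyte nuclei gave 18 WAT ATAC libraries and ribosome-bound RNA 18 RNA libraries. The authors deposited ATAC tag counts per 150 bp region of 1 WAT peak set on mm10, with the nearest gene, per the file headers from HOMER. The deposited RNA table holds expected counts per gene, which were rounded. The authors also deposited TPM per library, and JTK_CYCLE tables with a signal (tags divided by 1 factor per library), a p-value, a q-value and a LAG (the phase in hours, not used here). The deposited BMAL1 and BAT tables give a HOMER peak score. The submitters' processing notes name Bowtie2 2.4.1, STAR 2.7.5, RSEM 1.3.0, HOMER, DESeq2 and limma. For ATAC, the aligner and any shift of tags for the transposase were not given in the sources used here.

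edgeR 4.0.16 (R 4.3.3) fitted all regions or genes with TMM, filterByExpr and quasi-likelihood, with Benjamini-Hochberg adjustment over all tested and calls under 0.05. Rhythms used a cosine and a sine of 24 h. The SE was scaled to the F value. A contrast of the time means set dark against light, and the tag share was tested by exact permutation. DESeq2 1.42.0, other scalings, filters, a replicate block and leaving out each library were the alternatives. The fits were tested on simulated data. Intervals of depth cover counting error only. Named were the 10 promoters of lowest rhythm p, the 10 most open, the strongest of each gene on the clock, lipid and adipocyte lists, 15 pairs rhythmic in both, the 10 genes of lowest RNA p, the 5 with most promoters, and 10 with openness and TPM far apart. Any other name was chosen after its values were seen. The members and lists were chosen with earlier results of these data known. A gene list that was also examined is not reported here. Figures used Python 3.11.15 and matplotlib 3.10.9.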

Additional observations from a re-analysis of the deposited data

Results flagged for a closer look

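In each of the 2 phases, 9 libraries of every named region were searched for 1 library far from the other 8. It was found in 9 of 238 groups (3.78%), where chance gives about 1 in 20. In the light phase, the Pcnx4 promoter measured 133 CPM at ZT9 replicate 3, against 142 to 151 in the other libraries. The Cry1 promoter measured 56.3 CPM at ZT5 replicate 3 (others 61.7 to 66.7). The Acbd5 region at 23068074 measured 83.1 CPM at ZT9 replicate 3 (others 54.8 to 68.1), and the Plec region at 76199806 measured 46.2 CPM in the same library (others 21.1 to 32.9). The Sntg2 promoter measured 87.1 CPM at ZT5 replicate 2 (others 48.4 to 67.1). The Lep promoter measured 32.0 CPM at ZT1 replicate 3 (others 42.4 to 52.5), and the Bivm region at 44119323 measured 17.5 CPM in that library (others 25.8 to 34.1). In the dark phase, the Pparg promoter measured 69.8 CPM at ZT21 replicate 2 (others 36.3 to 53.0), and the Srsf11 promoter 22.2 CPM at ZT13 replicate 3 (others 14.6 to 16.9).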

How the results depend on the processing

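Scaling over promoters alone changed the direction split of the ATAC results: 230 light and 284 dark peaks in place of 400 and 167, and 170 promoters higher and 93 lower in the dark in place of 77 and 247. Scaling by DESeq2 size factors or the authors' factor, no filter, and time as a factor gave 550 to 567 rhythmic promoters, and DESeq2 gave 741. With 1 library left out, rhythmic promoters ran from 438 to 598 (light peaks 294 to 423, dark peaks 124 to 175), promoters that differed between phases from 163 to 366 (higher 46 to 89, lower 117 to 277), and the share difference from −1.55 to −1.30 points. Rhythmic RNA ran from 298 to 1591 genes, RNA that differed between phases from 95 to 1160 (higher 77 to 818, lower 18 to 342), and pairs rhythmic in both from 27 to 97. DESeq2 called 1316 rhythmic genes, 889 that differed between phases (347 lower) and 133 pairs. Without a filter, 294 genes were lower in the dark. Without the 3 RNA libraries rich in ribosomal RNA, an alternative chosen after seeing the data, the counts were 1714 rhythmic genes, 1631 that differed (1063 higher, 568 lower) and 119 pairs. The cause of these changes was not tested.

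With the replicate number as a block, 544 promoters (509 of the 567 among them), 877 genes and 71 pairs were rhythmic, 353 promoters and 720 genes differed between phases, and 229 genes were lower in the dark in place of 136. The share difference had p = 0.0005 in an exact permutation test within replicate numbers. Libraries with the same number did not deviate together: the correlation of ATAC deviations ran from −0.134 to 0.137 over 45 pairs and that of RNA deviations from −0.442 to 0.396 (median 0.03), and 5 of 18 libraries correlated best with their own number (3 of 18 in RNA). Of 39 named promoters called rhythmic, the block lost 4 (Plin2, Plec, the second Scd1 region and Ndufa4, with edgeR adjusted p of 0.0518, 0.0546, 0.0625 and 0.0593), scaling over promoters 4 (Pnpla2, Nr2c2, Rbx1 and Sp1) and DESeq2 1 (Plin2), and no fitted peak moved by more than 6 h. Simulated RNA of 12373 genes had 50 rhythms planted at each size. The fit found 0% of those with a log2 difference of 0.5, 6.12% with 1, 52% with 2 and 69.4% with 3. Fewer rhythms were planted than were called in the data, so these shares do not carry over to it. RNA rhythms as shallow as most called promoter rhythms may have been missed.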
